A study of Mus musculus with 12 samples.

Results

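The comparison is between colon epithelial cells from mice with a Villin-Claudin-2 transgene (TG, 3 arrays) and from their wild-type littermates (WT, 3 arrays), all given dextran sulfate sodium (DSS). The 6 arrays were chosen by their titles, which name genotype and treatment, out of 12 arrays in the series. All mice were males of 8 to 10 weeks, and both groups received 4% w/v DSS in the drinking water for 10 days. The other 6 arrays, 3 WT and 3 TG, came from littermates on plain water, and they are used below to show where the values lie without DSS, for the genotype difference at water and its comparison with that under DSS, and in fits that pool all 12 arrays. Villin is a gene of the intestinal epithelium whose regulatory sequence is used to drive transgenes there. The labels do not say whether each array is a separate animal, and the p-values therefore reflect only how these samples vary, which may be technical. Nor do they say how the epithelial cells were isolated.

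Claudin-2 sits in tight junctions, where it makes a pore for small cations and water between neighbouring epithelial cells. It is known to be raised in the colon in inflammatory bowel disease. DSS is a sulfated polysaccharide that injures the colon epithelium of mice and brings on colitis, in which neutrophils and macrophages enter the mucosa and crypts are lost and rebuilt. The comparison asks how the response of the colon epithelium to this injury differs when its cells carry the transgene.

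Values are log2 RMA signals of an Affymetrix Mouse Gene 1.0 ST array, each given relative to the middle value of its probe set across the 12 arrays. A value of 0 is therefore the middle of the series, a difference of 1 is a 2-fold difference, and no value says how abundant a transcript is. Of 28815 probe sets, 21780 had 1 gene symbol and gave 19935 genes. A gene is called separated here when its 3 TG arrays all lay above, or all lay below, its 3 WT arrays. A separated gene is called led by 1 array when leaving out some single array of the 6 left a difference smaller than the full size divided by 1.5, which is 66.7% of it.

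The DSS arrays were unequal in how far they departed from the rest. In WT replicates 1, 2 and 3 under DSS, the probe sets more than 1 log2 unit away from 0 numbered 677, 3795 and 1035. In the TG replicates under DSS the numbers were 285, 53 and 90, and on the water arrays they ran from 22 to 91. WT replicate 2 thus stood far apart, and TG replicates 2 and 3 lay within the span of the water arrays. Pan-epithelial genes such as Epcam, Cdh1 and the simple keratins had array medians of -0.11, -2.29 and 0.05 in WT and -0.21, 0.03 and 0.02 in TG, so WT replicate 2 was by far the lowest, and TG replicate 1 and WT replicate 1 also lay below the water arrays, which ran from -0.07 to 0.11. Whether epithelial genes were abundant in absolute terms cannot be read from centred values. In such bulk samples fewer cells of a type and less RNA per cell cannot be told apart.

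Under DSS, 3778 of 19935 genes (19.0%) were separated between the genotypes. TG was higher in 2801 of them (14.1%) and lower in 977 (4.90%). After the genes led by 1 array were set aside, 2276 genes (11.4%) remained, 1826 higher in TG (9.16%) and 450 lower (2.26%). The share of higher genes among those not led was 80.2%, and it was 66.9% (1383 higher and 685 lower) when each array was centred on its own median. No gene passed limma's test on the 6 arrays at an adjusted p under 0.05 (0.00% in either direction), and the smallest adjusted p was 0.501. At an unadjusted p under 0.05 there were 1879 genes (9.43%). A limma fit that pooled the spread over all 12 arrays passed 8 genes (0.0401%), namely Fmo4, Gstm7, Stk26, Tmeff1, Tmem40, Tmprss13 and Trp53i11 higher in TG and Ccl5 lower. With weights for each group, the same 12 arrays passed none. The genes below are therefore described by their values, since with 3 arrays in each group an exact permutation p cannot be smaller than 0.1.

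The size of the separation was mostly small. Among the genes not led by 1 array the median difference was 0.29 log2 for those higher in TG and 0.30 for those lower, and 140 and 50 of them differed by more than 1 log2 unit. For 682 of the 1826 higher genes and 152 of the 450 lower genes, all WT arrays lay beyond one end of the range of the 6 water arrays and the TG arrays did not. The reverse, TG arrays beyond the water range and WT arrays not, held for 94 and 12 genes. Neither group lay wholly beyond the water range for 1026 and 277 genes. How often these patterns held over all genes was not counted. The numbers therefore do not show whether the separated genes differ from the rest in this. WT replicate 2 was the WT array farthest from TG in 931 of the higher genes and 270 of the lower genes. TG replicate 1 was the TG array nearest to WT in 821 (45.0%) and 202 (44.9%).

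**Figure D1:**
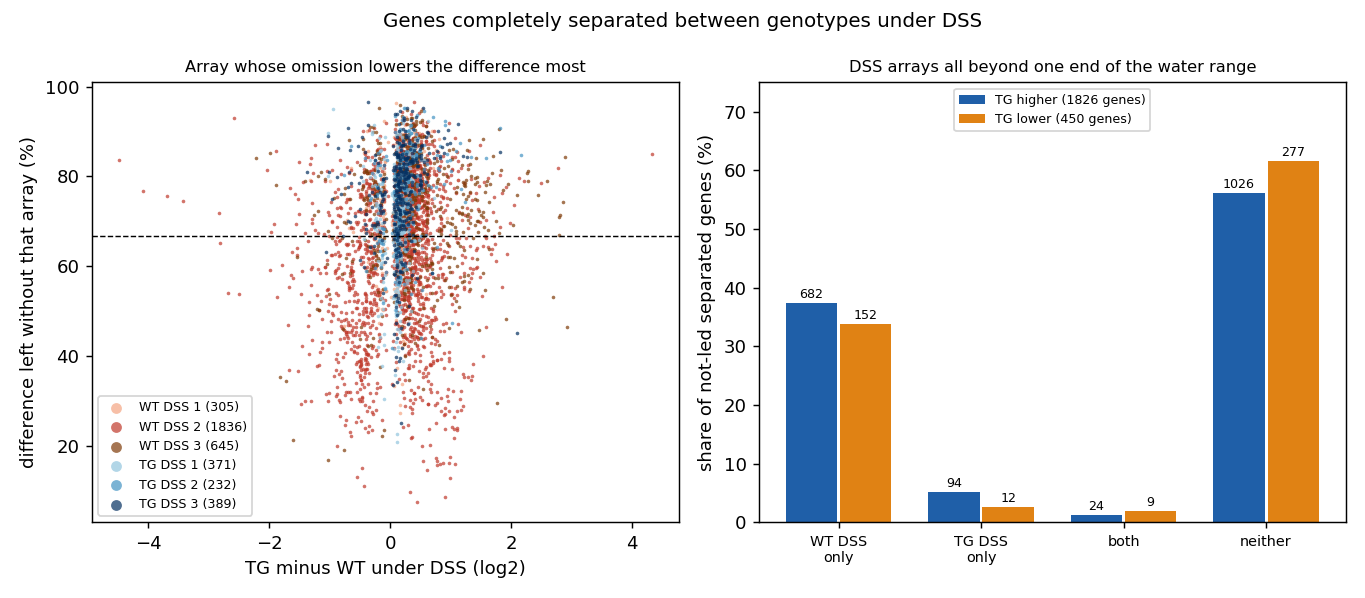
Left, each point is a gene separated between TG and WT under DSS, with the TG minus WT difference (log2) against the percentage of it that is left without the array that matters most, which sets the colour (numbers of genes in brackets), and the dashed line is the 66.7% limit below which a gene counts as led by 1 array. Right, bars give the share of the separated genes not led by 1 array by which DSS arrays all lay beyond one end of the range of the 6 water arrays, and WT alone did so in 682 higher and 152 lower genes.

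Saa3 and 3 cytokine and chemokine genes had the largest differences among the genes lower in TG. Saa3, an acute-phase serum amyloid A made by inflamed epithelium and macrophages, read 5.55, 6.89 and 3.83 in WT and 2.77, -0.10 and 0.15 in TG. The difference was -4.49 ± 1.09 (SE, n = 3 per group), a 22.4-fold lower signal in TG. All WT arrays were far above the water arrays, and among the TG arrays only replicate 1 was. Cxcl2, a chemokine that attracts neutrophils, read 4.38, 6.18 and 2.30 in WT and 0.88, -0.11 and -0.17 in TG, a difference of -4.09 ± 1.00. Ccl3, a chemokine of macrophages and other leukocytes, read 4.77, 5.94 and 1.72 in WT and 1.38, -0.02 and 0.01 in TG. Il1a, an interleukin released by damaged epithelium and by macrophages, read 4.37, 5.47 and 1.33 in WT and 1.04, -0.17 and 0.03 in TG. In these 3 genes WT replicate 2 was highest and WT replicate 3 lowest of the WT arrays, and TG replicate 1 came nearest to WT. The adjusted p of each of the 4 genes was 0.501 in the limma fit. Saa3 was the only 1 of 30 antimicrobial and acute-phase genes separated lower and not led (3.33% beside 2.26% of all genes), and 12 of the 30 differences were above 0. That count was 6 without WT replicate 3, 5 without TG replicate 1, 2 without WT replicate 2 and 0 without WT replicate 1 or TG replicate 3. With 1 array left out the groups separate more easily, and the share lower and not led over all genes rose too. The counts of 6, 5 and 2 were 20%, 16.7% and 6.67% of the list, beside 3.48%, 3.72% and 4.57% of all genes.

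In the other strongly lower genes Arg2, Hmox1, Penk, Stab2 and Ctla2a, WT replicate 2 was again the highest WT array. In Ccl5 and B4galnt1 the highest was WT replicate 3. Ccl5, a chemokine for T cells, read 1.5, 1.70 and 2.49 in WT and 0.07, 0.01 and -0.36 in TG, a difference of -1.99 ± 0.29. Arg2, the mitochondrial arginase, read 2.08, 3.16 and 3.15 in WT and 0.83, -0.08 and -0.10 in TG, a difference of -2.58 ± 0.41. In both genes the gap to TG exceeded 1 log2 unit, at 1.44 for Ccl5 and 1.25 for Arg2. The SD of the WT arrays was 0.52 for Ccl5 and 0.62 for Arg2, against 1.94 for Cxcl2. Hmox1, the heme oxygenase induced by oxidative stress, read 1.66, 3.30 and 1.11 in WT and 0.38, -0.29 and 0.06 in TG. Penk, the precursor of enkephalins, read 1.78, 2.82 and 1.59 in WT and 0.84, -0.15 and -0.59 in TG. Stab2, a scavenger receptor for hyaluronan, read 0.87, 2.39 and 2.29 in WT and -0.01, -0.09 and -0.03 in TG. For Stab2 the TG arrays stayed within the water range while every WT array was above it. Ctla2a, related to the propeptide of cysteine proteases, and B4galnt1, which makes complex gangliosides, differed by -2.83 ± 1.00 and -2.22 ± 0.54. For Ctla2a the nearest arrays were only just apart, with 0.57 in WT replicate 1 and 0.43 in TG replicate 1. Nfil3, a transcription repressor with circadian and immune roles, Tm4sf4, a tetraspan membrane protein, and Gdpd2 complete the genes with the widest gaps, with differences of -1.56 ± 0.42, -1.33 ± 0.24 and -1.24 ± 0.21.

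The largest differences among the genes higher in TG were in a mixed set of enzymes, channels and transporters, and for most of them all WT arrays lay below the water range. Mptx1, a mucosal pentraxin, read -3.56, -6.17 and -4.89 in WT and -2.05, 0.48 and -0.06 in TG. The difference was 4.33 ± 0.92, a 20.1-fold higher signal in TG. TG replicate 1 also lay below the water arrays, whose lowest value was -0.29. Ctse, the intracellular protease cathepsin E, read -1.64, -2.43 and -4.24 in WT and -0.29, 0.57 and -0.01 in TG, a difference of 2.86 ± 0.69. Cyp2f2, a cytochrome P450, read -1.75, -3.88 and -2.99 in WT and -0.96, 0.36 and 0.29 in TG. Nox1, the superoxide-producing oxidase of colon epithelium, read 0.00, -2.72 and -3.14 in WT and 0.59, 0.49 and 0.40 in TG. For Nox1 TG lay above the water range, whose highest value was 0.34, and WT replicate 1 lay inside it. St8sia5, described below, had the same pattern, with a highest water value of 0.36. On water too, the 3 TG arrays exceeded the 3 WT arrays for Nox1, by 0.35, and for Hottip, described below, by 0.28.

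Several of these genes had 1 WT array near TG and the other two far below. Casp14, a caspase of cornifying epithelia, read -0.97, -3.29 and -4.55 in WT and -0.57, 0.10 and 0.10 in TG. Clic6, an intracellular chloride channel protein, read -0.48, -3.27 and -3.51 in WT and -0.11, 0.36 and 0.29 in TG. St8sia5, a sialyltransferase of gangliosides, read -0.12, -2.51 and -3.76 in WT and 0.49, 0.96 and 0.56 in TG. WT replicate 1 was the nearest to TG in all 3. Slc37a2, a sugar-phosphate transporter, Eno3, an enolase of glycolysis, and Hottip, a long noncoding RNA at the distal end of the Hoxa cluster, differed by 2.80 ± 0.92, 2.29 ± 0.64 and 2.27 ± 0.63. Over the 10 largest differences in each direction and the widest gaps, the limma adjusted p ran from 0.501 to 0.511.

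**Figure D2:**
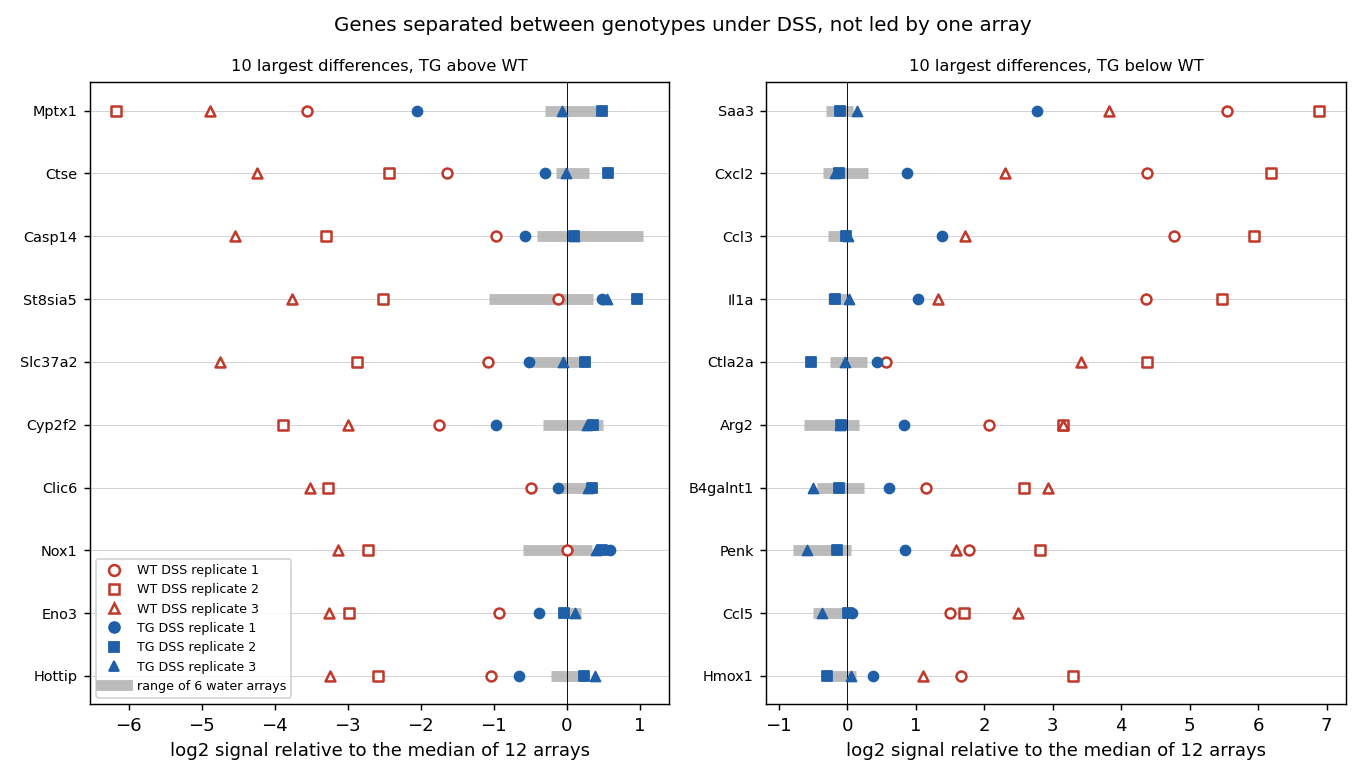
Each row is a gene among the 10 largest TG minus WT differences in each direction (separated, not led by 1 array), with open red symbols for the 3 WT and filled blue symbols for the 3 TG arrays under DSS on a log2 scale relative to the median of 12 arrays, and a grey bar for the range of the 6 water arrays. Most genes have all WT arrays beyond the grey bar, as for Saa3 at 3.83 to 6.89 in WT and -0.10 to 2.77 in TG.

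The most even separations belonged to genes whose arrays varied little within each genotype. Nsun3, a methyltransferase of mitochondrial tRNA, read -1.05, -0.94 and -0.86 in WT and -0.15, 0.10 and -0.06 in TG, a difference of 0.91 ± 0.10. Trp53i11, a p53-inducible gene, read -0.81, -0.79 and -0.98 in WT and -0.06, 0.20 and -0.00 in TG. Lcmt1, which methylates protein phosphatase 2A, read -0.42, -0.40 and -0.47 in WT and 0.09, 0.09 and 0.17 in TG. In none of the 3 genes was WT replicate 2 the array farthest from TG. Tmeff1, a transmembrane protein with follistatin domains, and Stk26, a kinase of the germinal center kinase family, differed by 0.95 ± 0.11 and 1.79 ± 0.22. These 5 genes had the smallest p-values of the limma fit, and the adjusted p of each was 0.501.

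Further genes with wide gaps were higher in TG by 1.11 to 2.21 log2 units. Fmo4, a flavin monooxygenase, read -1.78, -2.19 and -2.28 in WT and -0.59, 0.75 and 0.11 in TG. Tmprss13, a membrane serine protease, read -1.74, -2.26 and -2.16 in WT and -0.72, 0.09 and -0.09 in TG. Gstm7, a glutathione transferase, read -1.01, -1.29 and -1.04 in WT and -0.23, 0.04 and 0.19 in TG. In each gene the WT arrays lay close together and every TG array lay above them. At water Fmo4 was separated the other way, with a TG minus WT difference of -0.42, and so were Aurkb and Cela1, described below, at -0.22 and -0.18. Smpx, a small muscle protein, Ttr, the thyroxine carrier transthyretin, Slc16a12, a monocarboxylate transporter family member, and Knstrn, a kinetochore protein, differed by 2.21 ± 0.49, 1.81 ± 0.31, 1.86 ± 0.46 and 1.58 ± 0.35.

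Genes of cell division were higher in TG as a list. Of 41 measured cell cycle genes all had a positive difference, with a median of 0.80 log2 against 0.04 over all genes. Of them 20 were separated and 11 were separated and not led by 1 array, or 26.8% beside 9.16% of all genes, and none was separated in the other direction. No member passed limma's test, and 14 had an unadjusted p under 0.05. Taken array by array, the list's median was 0.08, -0.62 and -1.22 in WT and 0.37, 0.12 and 0.06 in TG. WT replicate 1 thus lay with the TG arrays, and replicates 2 and 3 lay below. The median was 0.42 without WT replicate 3. The count of 11 was 0 without WT replicate 2, beside 10.4% of all genes, and 1 without WT replicate 3 (2.44% beside 10.4%). It was 22 without WT replicate 1 (53.7% beside 11.6%) and 7 with each array centred (17.1% beside 6.94%). The count of separated members was 20 without either WT replicate 2 or WT replicate 3.

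The members not led by 1 array act mainly in mitosis. Ccnb2, a B-type cyclin that drives entry into mitosis, read -0.70, -1.50 and -2.85 in WT and 0.14, 0.21 and -0.02 in TG, a difference of 1.80 ± 0.54. Kif11, the kinesin that separates spindle poles, read -0.41, -1.60 and -2.58 in WT and 0.40, 0.29 and -0.05 in TG, a difference of 1.75 ± 0.55. Aurkb, the kinase of the chromosomal passenger complex, read -0.33, -1.38 and -2.15 in WT and 0.19, 0.14 and 0.01 in TG. In these genes WT replicate 3 was the lowest array, not the replicate that stood apart over all genes. Cdc20, the activator of the anaphase-promoting complex, Bub1b and Ttk, which act in the spindle checkpoint, Nusap1 and Kif20a, spindle proteins, and Cdc25c, the phosphatase that activates the mitotic kinase, differed by 0.99 to 1.54. Aurka, a spindle pole kinase, had no margin between its nearest arrays, with 0.00 in WT replicate 1 and 0.01 in TG replicate 3. Tyms, which makes thymidylate for DNA synthesis, had the smallest difference, 0.80 ± 0.29. The limma adjusted p of the 11 genes ran from 0.501 to 0.515.

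Promoters of genes of the mitotic program are known for the cell cycle homology region, TTTGAA, and for CCAAT boxes bound by NF-Y. The 250 bases before the start site of the 2 members with the largest differences are shown to let a reader see these letters, with matches on either strand in capitals (RefSeq sequence, GRCm38.p6, 5′ to 3′ on the gene's strand). Ccnb2 lies on the minus strand at chr9:70421555-70421804 and Kif11 on the plus strand at chr19:37376132-37376381.
Ccnb2: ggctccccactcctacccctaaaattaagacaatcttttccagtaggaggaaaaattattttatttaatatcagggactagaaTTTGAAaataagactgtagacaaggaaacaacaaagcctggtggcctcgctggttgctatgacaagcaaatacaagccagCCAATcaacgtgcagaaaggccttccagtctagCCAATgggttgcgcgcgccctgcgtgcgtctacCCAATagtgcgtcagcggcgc
Kif11: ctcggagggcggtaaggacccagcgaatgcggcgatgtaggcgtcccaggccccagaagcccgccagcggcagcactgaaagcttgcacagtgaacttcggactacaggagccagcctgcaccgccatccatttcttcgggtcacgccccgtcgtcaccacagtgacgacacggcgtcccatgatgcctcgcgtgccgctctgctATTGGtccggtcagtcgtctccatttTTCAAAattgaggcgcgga
Ccnb2 held 1 TTTGAA and 3 CCAAT, and Kif11 held 1 of each, both on the opposite strand. Over the 32 list promoters found in the table, CCAAT occurred in 23 (71.9%), beside 33.8% of 32851 promoters of all genes, and TTTGAA in 25% beside 16.0%. A match is a description of the letters and not a shown binding site.

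**Figure D3:**
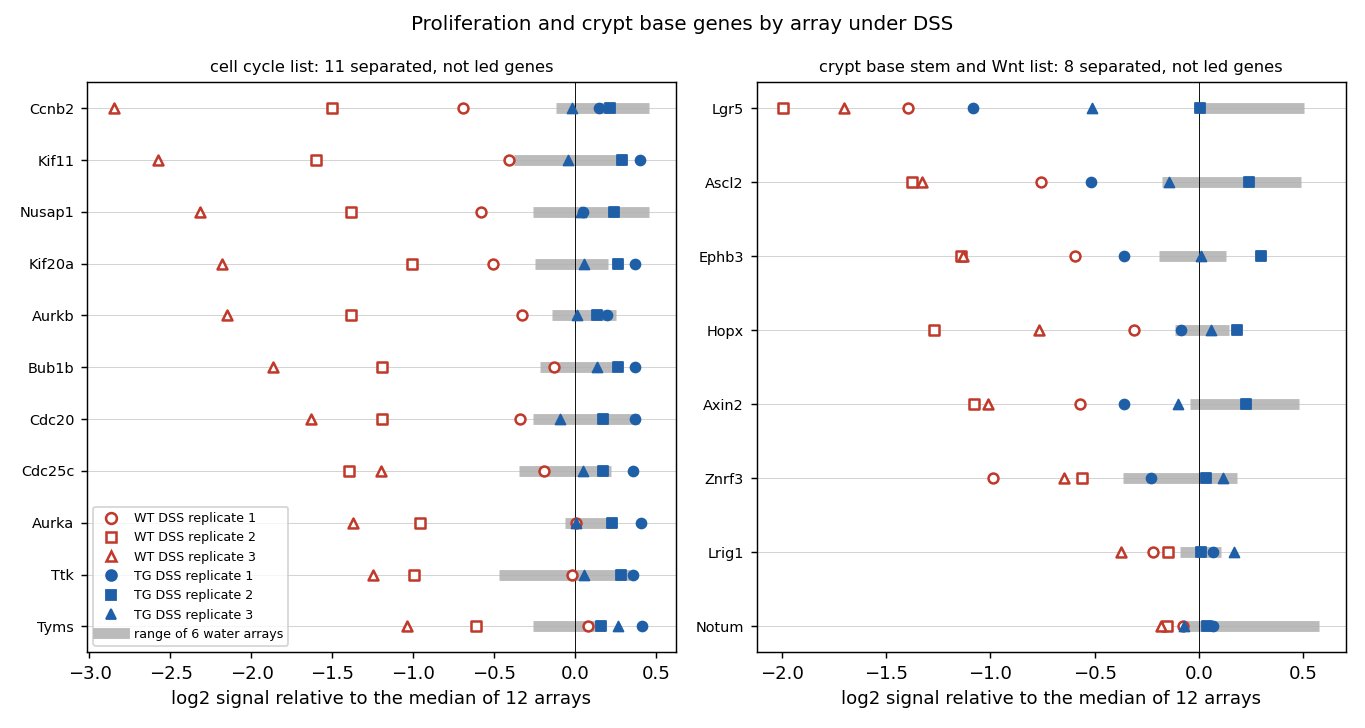
Each row is a cell cycle gene (left) or a gene of the crypt base stem cell and Wnt list (right) that was separated under DSS and not led by 1 array, with open red symbols for WT and filled blue symbols for TG arrays on a log2 scale relative to the median of 12 arrays, and a grey bar for the range of the 6 water arrays. In Ccnb2 the WT arrays run from -2.85 to -0.70 and the TG arrays from -0.02 to 0.21.

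Stem cell genes of the crypt base, many of them targets of Wnt signalling, were separated at a higher share than all genes. Of 21 measured members 11 were separated with TG higher and 8 were not led by 1 array, or 38.1% beside 9.16% of all genes, while 1 was separated with TG lower. The median difference was 0.33 log2, and 13 of the 21 were above 0. None passed limma's test. The count of 8 was 5 without TG replicate 3, and from 7 to 9 in the other settings that left out 1 array or centred the arrays.

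Lgr5, a receptor by which the stem cells of the crypt base are recognised, read -1.40, -1.99 and -1.70 in WT and -1.08, 0.00 and -0.51 in TG, a difference of 1.17 ± 0.31. Ascl2, a transcription factor of the same cells, read -0.76, -1.38 and -1.33 in WT and -0.52, 0.24 and -0.14 in TG, a difference of 1.01 ± 0.26. Ephb3, a Wnt-induced receptor that positions cells in the crypt, read -0.59, -1.14 and -1.13 in WT and -0.36, 0.30 and 0.01 in TG. TG replicate 1 was the lowest TG array in all 3 and lay nearest to WT. Axin2, a feedback inhibitor of Wnt signalling, read -0.57, -1.08 and -1.01 in WT and -0.36, 0.22 and -0.10 in TG. Znrf3, which removes Wnt receptors from the cell surface, read -0.99, -0.56 and -0.65 in WT and -0.23, 0.04 and 0.12 in TG. Lrig1, a stem cell marker that restrains growth factor receptors, read -0.22, -0.15 and -0.37 in WT and 0.07, 0.01 and 0.17 in TG. For Znrf3 and Lrig1 WT replicate 2 was not the lowest array. Hopx differed by 0.83 ± 0.25 and Notum, which inactivates Wnt proteins, by 0.15 ± 0.08. The limma adjusted p of these genes ran from 0.501 to 0.567.

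Cytokines and chemokines made up the list most often separated with TG lower by number. Of 43 measured members 12 were separated lower and 8 were not led by 1 array, or 18.6% beside 2.26% of all genes, while 2 were separated higher and none of those was free of a leading array. The median difference was -0.80 (-0.24 without WT replicate 2), and 6 members were above 0. None passed limma's test, and 10 had an unadjusted p under 0.05. The count of 8 was 3 without WT replicate 1 (6.98% beside 5.19% of all genes), near the share of all genes. It was 4 without WT replicate 2 (9.30% beside 4.57%) and 13 without WT replicate 3 (30.2% beside 3.48%). Besides Cxcl2, Ccl3, Il1a and Ccl5 the members were Tnf, Osm, Ccl4 and Il12b. Tnf, a central inflammatory cytokine, read 1.44, 1.39 and 1.13 in WT and 0.74, 0.47 and -0.11 in TG, a difference of -0.96 ± 0.24. The WT arrays agreed closely for Tnf, and all 3 were above the water arrays. Osm, oncostatin M, read 1.27, 1.98 and 0.33 in WT and -0.00, -0.12 and -0.00 in TG. Ccl4 and Il12b, the shared subunit of interleukins 12 and 23, differed by -0.42 ± 0.16 and -0.21 ± 0.09.

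The promoters of the 2 genes with the largest negative differences are shown in the same way (RefSeq, GRCm38.p6). The Cxcl2 window is at chr5:90903649-90903898 on the plus strand, with the NF-kappaB type motif GGGANNNNCC in capitals. The Saa3 window is at chr7:46715677-46715926 on the minus strand, with the C/EBP type motif TTGCNNAA in capitals.
Cxcl2: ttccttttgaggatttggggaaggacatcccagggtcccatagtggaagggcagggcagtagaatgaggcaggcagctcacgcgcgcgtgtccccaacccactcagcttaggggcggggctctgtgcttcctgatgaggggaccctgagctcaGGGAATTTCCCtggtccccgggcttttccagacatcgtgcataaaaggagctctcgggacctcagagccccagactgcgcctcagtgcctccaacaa
Saa3: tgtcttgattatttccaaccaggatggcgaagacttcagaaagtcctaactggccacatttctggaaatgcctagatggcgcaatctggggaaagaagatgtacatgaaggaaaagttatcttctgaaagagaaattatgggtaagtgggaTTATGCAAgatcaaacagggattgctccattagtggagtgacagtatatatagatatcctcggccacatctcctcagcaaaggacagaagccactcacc
The Cxcl2 window held 2 overlapping matches, 1 on each strand, and the Saa3 window held 1 match on the opposite strand. GGGANNNNCC occurred in 12 of 38 cytokine and chemokine promoters (31.6%) beside 17.6% of all promoters, and TTGCNNAA in 7.89% beside 9.56%, with both strands searched.

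Genes of immune tolerance and restraint behaved like the cytokines in direction. Of 32 measured members 31 had a negative difference, 9 were separated lower (beside 4.90% of all genes) and 5 were not led by 1 array (15.6% beside 2.26%). The median was -0.65, and -0.31 without WT replicate 2. The 5 were Arg2, Hmox1, Arg1, Tigit and Lag3. Arg1, the cytosolic arginase of alternatively activated macrophages, read 1.79, 1.54 and 0.39 in WT and -0.05, -0.10 and -0.09 in TG, a difference of -1.32 ± 0.37. Tigit and Lag3, inhibitory receptors of T cells, differed by -0.53 ± 0.17 and -0.14 ± 0.06. The count of 5 was 3 without WT replicate 1 (9.38% beside 5.19% of all genes). It was 10 without WT replicate 3 (31.25% beside 3.48%) and 8 without TG replicate 1 (25% beside 3.72%). In the list of pattern recognition and NF-kappaB genes 1 of 32 was separated lower and not led, Nod2, the sensor of bacterial muramyl dipeptide, at -0.43 ± 0.10. Among 35 interferon response genes Phf11d and Tap2, a peptide transporter of antigen presentation, were so, at -1.31 ± 0.29 and -0.29 ± 0.11. Beside 2.26% of all genes these were 3.13% and 5.71% of their lists, and the counts of 1 and 2 were 5 and 6 without WT replicate 3, 3 and 5 without TG replicate 1, and 3 and 3 without WT replicate 2. Of the 9 MHC class II genes 1 had a difference above 0, the median was -0.61, and none was separated with all 6 arrays. Without WT replicate 2, 4 of them were separated lower and 2 were not led (22.2% beside 4.57% of all genes). Without TG replicate 1 these counts were 3 and 1 (11.1% beside 3.72%). Without any other single array none was separated.

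Matrix remodelling genes had a median difference of -1.75 over 22 genes, and of -0.85 without WT replicate 2. Plaur, the urokinase receptor, and Thbs1, thrombospondin-1, were separated lower and not led (9.09% beside 2.26% of all genes), at -1.51 ± 0.49 and -1.91 ± 0.62. The count of 2 was 7 without WT replicate 3, 6 without TG replicate 1, 0 without WT replicate 1 and 1 without any other single array. Mmp13, a collagenase, read 5.15, 6.10 and 2.44 in WT and 3.31, -0.54 and -0.07 in TG, so that TG replicate 1 lay above WT replicate 3. Lcn2, the antimicrobial siderophore-binding lipocalin, likewise read 4.37, 6.36 and 2.48 in WT and 2.58, -0.01 and -0.03 in TG. For both genes the groups overlapped through that 1 pair of arrays.

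Markers of neutrophils, macrophages and endothelium moved with these inflammatory genes. The part of other cell types in the differences was not tested. The array medians of 20 neutrophil genes were 1.84, 3.70 and 0.27 in WT and 0.61, -0.05 and -0.04 in TG, with 17 of 20 differences below 0. Those of 21 macrophage and monocyte genes were 1.13, 2.26 and -0.08 in WT and 0.90, -0.22 and -0.16 in TG. Those of 18 endothelial genes were 0.62, 2.92 and -0.27 in WT and 0.33, -0.21 and -0.18 in TG. WT replicate 2 was highest and TG replicate 1 was raised in each of these lists, while WT replicate 3 was near the water arrays. Fibroblast genes followed, with array medians of 0.76, 1.97 and -0.15 in WT. Not all lists did. Array medians in WT were 0.11, 0.05 and 0.17 for T and NK cell genes and -0.97, 0.67 and 0.13 for smooth muscle genes. B and plasma cell genes had a median difference of 0.03, with 10 of 18 above 0. Neutrophil genes were separated lower in 3 of 20 cases, all led by 1 array, beside 4.90% and 2.26% of all genes, and with all 6 arrays no macrophage, endothelial, T cell or smooth muscle gene was separated. Without WT replicate 3, separated lower were 14 of the neutrophil genes (8 not led), 15 of the macrophage and monocyte genes (8), 14 of the endothelial genes (0) and 12 of the fibroblast genes (4). Of all 19935 genes 2236 were separated lower in that setting (3.48% not led). Without TG replicate 1 the counts for these lists, in the same order, were 16 (6), 9 (3), 5 (0) and 10 (2), beside 2324 of all genes (3.72% not led). The 19 fibroblast genes had 1 that was separated and not led, Fap, at -0.41 ± 0.12. Without WT replicate 1, 10 of 18 smooth muscle genes (4 not led) and 4 of 20 T and NK cell genes (3 not led) were separated lower. Of all 19935 genes 2450 were so in that setting (5.19% not led).

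**Figure D4:**
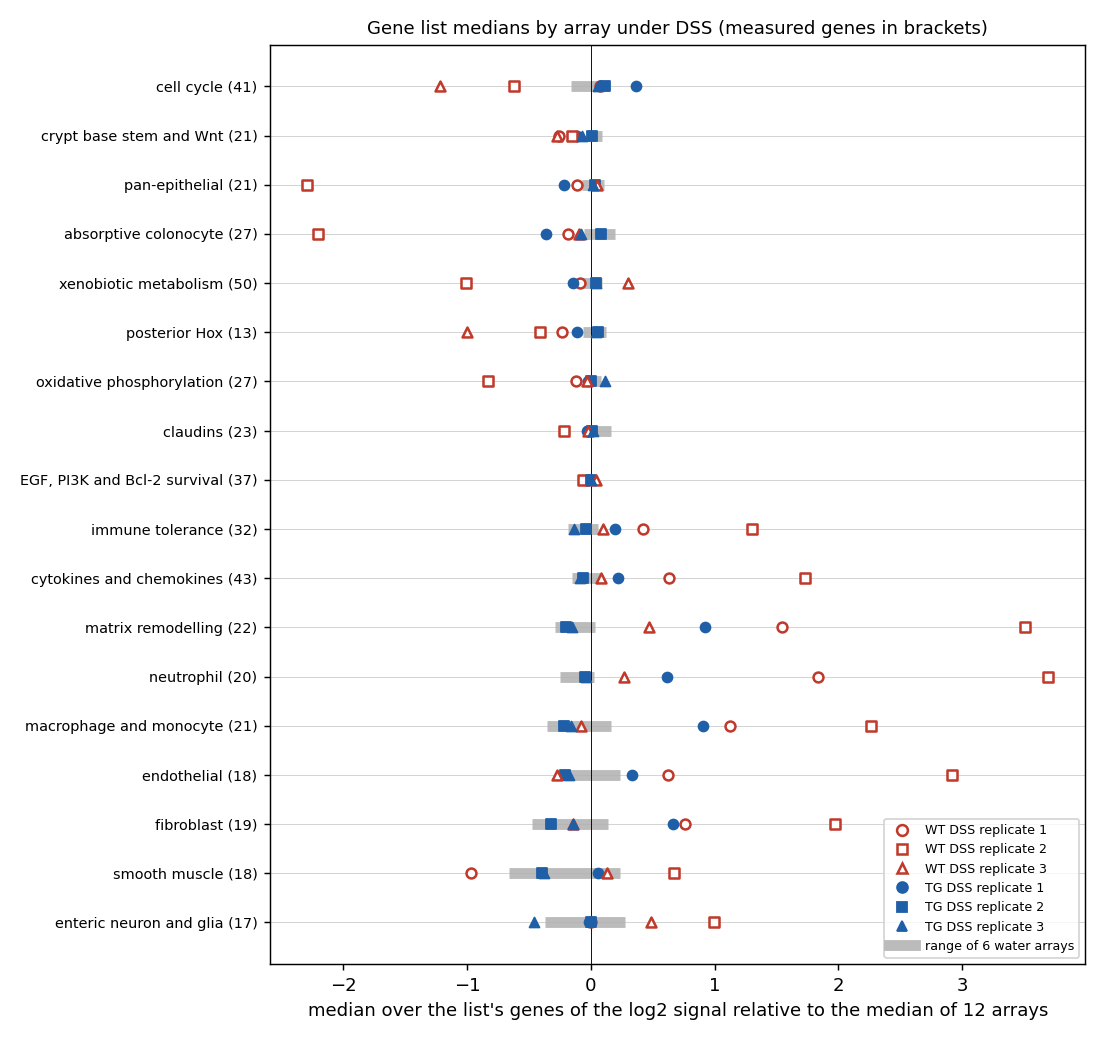
Each row is a gene list with its number of measured genes in brackets, and each symbol is the median over the list's genes on 1 array under DSS (log2 relative to the median of 12 arrays, open red for WT, filled blue for TG), with a grey bar for the range of the 6 water arrays. WT replicate 2 reaches 3.70 for neutrophil genes and -2.29 for pan-epithelial genes, while the cell cycle list is lowest in WT replicate 3 at -1.22.

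The transgene's own gene was not separated. Cldn2 read -0.53, -2.28 and -0.12 in WT and -0.24, 0.27 and 0.15 in TG, a difference of 1.04 ± 0.58 with a limma adjusted p of 0.576. TG replicate 1 lay below WT replicate 3, and 37% of the difference was left without WT replicate 2. On water the difference was 0.14 ± 0.12. Whether the probes read the transgene's transcript as well as that of the mouse gene is not given in the sources used here, so these values do not check the labels.

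Junction and epithelial genes are read against all genes, of which 14.1% were separated higher and 4.90% lower, or 9.16% and 2.26% without the led genes. Of 23 claudins 1 was separated in each direction, of 24 other tight junction genes 3 were higher and 2 lower, and of 16 adherens junction and desmosome genes 1 was higher. With all 6 arrays none of the 23 claudins, 24 other tight junction genes or 16 adherens junction and desmosome genes was separated without being led by 1 array. Without WT replicate 2, 2 claudins, 4 other tight junction genes and 1 adherens junction or desmosome gene were higher and not led. These were 8.70%, 16.7% and 6.25% of the lists, beside 10.4% of all genes in that setting. Lower and not led were 1, 0 and 1 (4.35%, 0% and 6.25% beside 4.57%). Cldn12 read -0.14, -1.21 and -0.43 in WT and 0.06, 0.15 and 0.11 in TG, a separation of which 56% was left without WT replicate 2. Of the 21 pan-epithelial genes all had a positive difference and 3 were separated, Esrp1, Hnf4a and Ppp1r1b, all led by WT replicate 2. Of 27 absorptive colonocyte genes 4 were separated higher and 1 was not led, Slc20a1, a phosphate transporter, which read -0.89, -2.16 and -1.85 in WT and -0.87, -0.01 and -0.35 in TG. Its nearest arrays, WT replicate 1 and TG replicate 1, differed by little, and the count of 1 was 6 without WT replicate 1. Oxidative phosphorylation genes were separated higher in 9 of 27 cases and each was led by 1 array, while 5 were not led without WT replicate 2.

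Detoxification enzymes had a share of separated genes near that of all genes. Of 50 xenobiotic metabolism genes 6 were separated higher and not led (12% beside 9.16%), which was 10% with each array centred and 8% without TG replicate 3. The list's median was 0.21 beside 0.04 over all genes, and it was -0.088 without WT replicate 2 and 0.50 without WT replicate 3. Besides Fmo4 these were Gstm6, Gstm5, Mgst1, Cyp2b10 and Ugt2a3. Gstm6, a mu-class glutathione transferase, read -1.11, -2.65 and -1.57 in WT and -0.40, 0.27 and 0.32 in TG, a difference of 1.84 ± 0.44. The last 3 differed by 0.20 or less. In cholesterol synthesis 18 of 19 differences were above 0, with a median of 0.46 (0.15 to 0.61 without 1 array). Of the 19 genes 5 were separated higher, beside 14.1% of all genes. Only 1 was not led, Mvk, mevalonate kinase, at 0.56 ± 0.13 (5.26% beside 9.16%). That count was 5 without WT replicate 1 (26.3% beside 11.6%). It was 3 without WT replicate 2 or TG replicate 2 (15.8% beside 10.4% and 10.0%).

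Hox genes mark position along the gut. Of 13 posterior members 6 were separated higher and 0 lower. Of 20 anterior members 3 were separated higher and 6 lower, beside 14.1% and 4.90% of all genes. Hoxd12 read -0.93, -1.10 and -1.48 in WT and -0.30, 0.35 and 0.34 in TG, a difference of 1.3 ± 0.24, and Hoxa9 read -0.23, -1.37 and -1.88 in WT and -0.19, -0.04 and 0.04 in TG. These were the 2 of 13 posterior Hox genes that were separated higher and not led (15.4% beside 9.16% of all genes), and the list's array medians were lowest in WT replicate 3. Of 20 anterior Hox genes Hoxa7, Hoxa3 and Hoxc4 were separated higher and not led, at 0.87 ± 0.24, 0.51 ± 0.16 and 0.12 ± 0.07. Hoxb4 was separated lower and not led, at -0.73 ± 0.23. These were 15% and 5% of the list, beside 9.16% and 2.26%. The count of 2 was 1 with centring or without WT replicate 2 or TG replicate 3, 3 without WT replicate 1 or 3, and 4 without TG replicate 1. The anterior counts of 3 and 1 were 1 higher without TG replicate 3 and 3 lower without WT replicate 1.

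Among 37 genes of EGF, PI3K and Bcl-2 family signalling the median difference was 0.01, and 1 was higher and 3 were lower among those separated and not led, beside 9.16% and 2.26% of all genes. Bid, a pro-apoptotic BH3 protein, was higher in TG by 0.45 ± 0.17. Bcl2l11 and Bmf, other BH3 proteins, and Pik3cd, a leukocyte PI3-kinase subunit, were lower, by -0.54 ± 0.21, -0.48 ± 0.16 and -0.68 ± 0.19. Of 17 circadian genes 1 was separated higher and not led (5.88% beside 9.16%), Clock, at 0.47 ± 0.14. That count was 0 with centring or without WT replicate 1 or 2, 4 without WT replicate 3 and 2 without TG replicate 1. Lower and not led were 2 (11.8% beside 2.26%), among them Cry1, a repressor of the clock, at -0.71 ± 0.20. The lower count ran from 1 to 3 without 1 array. A few members of other lists were separated and not led. Sst, somatostatin of enteroendocrine cells, differed by -1.26 ± 0.44, Tff1, a trefoil peptide, by -0.34 ± 0.10 and Ltc4s, a leukotriene synthase of tuft cells, by -0.20 ± 0.08. Lower and not led was 1 of 20 enteroendocrine, 1 of 19 goblet and 1 of 16 tuft cell genes (5%, 5.26% and 6.25% beside 2.26% of all genes). Differences above 0 numbered 9, 14 and 4 in these lists, so goblet genes mostly went the other way. Cela1, an elastase, was higher in TG by 2.05 ± 0.66 and Fabp6, the ileal bile acid binding protein, by 0.58 ± 0.14. Defa24, Pdia4, Cma1, Cidea, Epb42, Krt10 and Sprr3 were higher by 0.06 to 0.67. These higher genes were 1 or 2 of each list, or 4.17% to 11.8% beside 9.16% of all genes. The exception was Epb42, 1 of 3 erythrocyte genes.

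The water arrays took no part in choosing the separated genes. Of the 1826 genes higher in TG under DSS 58.3% also had a positive TG minus WT difference at water, beside 54.7% of all genes, and of the 450 lower genes 50.7% had a negative one, beside 45.3%. The same separation at water was present in 39 of the higher genes (2.14% beside 1.93% of all genes) and in 22 of the lower genes (4.89% beside 3.05%). No gene passed limma's test at water (0.00%), where 423 had an unadjusted p under 0.05. The interaction, the genotype difference under DSS minus that at water, passed for none either (0.00%, 1167 at an unadjusted p under 0.05), so no difference between the conditions was shown for any single gene.

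Among the genes lower in TG under both conditions were genes of enteric neurons. Nos1, the neuronal nitric oxide synthase, read 0.25, 1.17 and 0.67 in WT and -0.01, 0.02 and -0.55 in TG under DSS, and differed by -0.88 ± 0.28 there and by -0.40 ± 0.13 at water. Prph, the neuronal intermediate filament peripherin, differed by -1.01 ± 0.30 under DSS and -0.51 ± 0.14 at water. Ret, the receptor for glial-derived neurotrophic factors, differed by -0.88 ± 0.25 and -0.37 ± 0.13. Gal, the neuropeptide galanin, read 0.81, 2.05 and 2.68 in WT and 0.25, -0.09 and -0.29 in TG under DSS, and differed by -1.89 ± 0.49 there and by -0.54 ± 0.10 at water. Ncam2, Syp, the synaptic vesicle protein synaptophysin, and Prnp, the prion protein, were also lower in both. Of the 17 measured enteric neuron and glia genes 7 were separated lower under DSS (beside 4.90% of all genes) and 9 at water (beside 3.05%), none was above 0 under DSS, and the medians were -0.74 and -0.37. The 3 not led by 1 array under DSS (17.6% beside 2.26%) became 9 without WT replicate 1, 5 without TG replicate 1 or TG replicate 2, and 1 without WT replicate 3 or TG replicate 3.

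Smooth muscle genes, from the layer that also houses enteric neurons, had a median difference of -0.43 at water with 9 of 18 separated lower (beside 3.05% of all genes), and of -0.17 under DSS with none separated. The latter was -0.66 without WT replicate 1 and 0.16 without WT replicate 2. Their part in the values of the neuronal genes was not tested. Enpep, a brush border aminopeptidase, was lower in both conditions, by -1.52 ± 0.49 under DSS and -0.51 ± 0.12 at water. Lta4h, which makes leukotriene B4, and Chp2, a calcium-binding partner of sodium-proton exchangers, were higher in both, by 0.45 ± 0.10 and 1.55 ± 0.56 under DSS and by 0.43 ± 0.16 and 0.40 ± 0.27 at water.

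**Figure D5:**
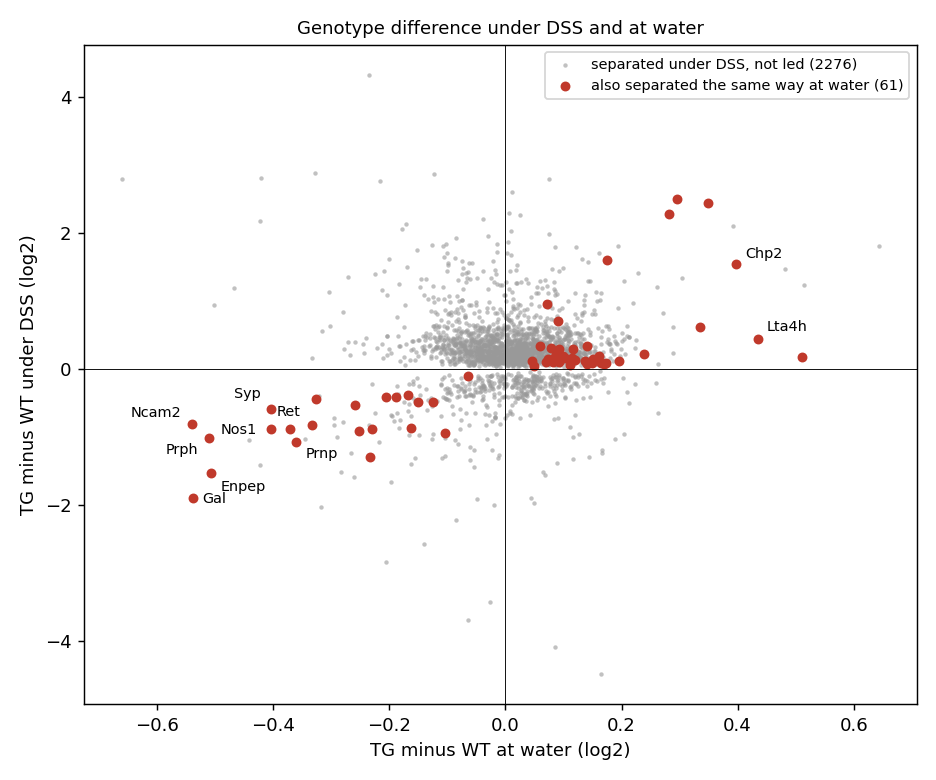
Each point is 1 of the 2276 genes separated under DSS and not led by 1 array, with the TG minus WT difference at water on the horizontal axis and under DSS on the vertical axis (both log2), and the 61 genes also separated the same way at water are red. The named red points at lower left include Gal (-1.89 under DSS, -0.54 at water), Prph and Nos1.

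Genes led by 1 array numbered 1502 of the 3778 separated genes. The leading array was WT replicate 2 in 981 of them, WT replicate 3 in 193, TG replicate 1 in 128, WT replicate 1 in 83, TG replicate 3 in 71 and TG replicate 2 in 46. Retnlg, a neutrophil resistin-like protein, read 3.20, 5.16 and 1.22 in WT and 1.17, -0.01 and -0.04 in TG, and 65% of its difference was left without WT replicate 2. Pappa and Mmp8, both proteases, kept 54% of differences of -2.68 ± 1.11 and -2.51 ± 1.05 without the same array. Tgm3, a transglutaminase, read -0.38, -2.50 and -6.12 in WT and -0.24, -0.01 and 0.01 in TG, and Hoxb13, the most posterior gene of its cluster, read -0.50, -2.65 and -5.36 in WT and -0.45, 0.06 and -0.05 in TG. In both genes WT replicate 3 was far below all other arrays and WT replicate 1 nearly met TG replicate 1. Tcaf3 was led by a TG array, with 1.66, 0.01 and 4.30 in TG against -0.13, -0.07 and -0.14 in WT, and it reached 4.74 on a water array.

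The limit that divides the led from the other genes falls among genes of similar values. Just inside it were Abcg5 and Prr15, higher in TG by 1.72 and 1.56, and Cyfip2 and Foxl2, lower by -0.78 and -0.21. Just outside were Erfe and Nt5dc1, higher by 0.42 and 0.28, and Cdc42ep2 and Ypel2, lower by -1.01 and -0.52. All 8 had 67% of the difference left when rounded to a whole percent.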

How the data were processed

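Total RNA of the samples was read on Affymetrix Mouse Gene 1.0 ST arrays. Per the submitters' processing notes the authors summarised signals by RMA in Affymetrix Expression Console (no version stated). That is a log2 output, and the deposited values were read as log2 although the base is not stated. Each probe set had a median of 0 over the 12 arrays to within 5e-07, found from the values, so levels and a filter on dim probe sets were not used. Probe sets with 1 symbol (21780, array annotation, 21689 matched to RefSeq of GRCm38.p6) were averaged per gene, and 7035 others were left out. limma 3.58.1 in R 4.3.3 (lmFit, eBayes) was fitted to the 6 DSS arrays, since spread differed between groups, with two-sided p-values adjusted by Benjamini-Hochberg over 19935 genes. It was tested on simulated data. Tables used Python 3.11.15, pandas 2.3.3, numpy 2.4.6 and matplotlib 3.10.9. The number of arrays limits the precision.

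Members, the 40 gene lists and the naming rule were chosen with earlier results of these data known. Named were Cldn2, the 10 largest differences and 10 widest gaps each way and the 5 smallest p among genes with descriptive symbols, the 10 largest of those separated also at water, list members that were separated and not led or among the 4 smallest p of a list, 3 led genes each way and 2 genes on either side of the limit. Alternatives changed the arrays in the fit, weights, block, centring, probe sets, moderation, filter, threshold and limit, and left out each array.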

Additional observations from a re-analysis of the deposited data

How the results depend on the processing

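No gene passed at an adjusted p under 0.05 in 8 of the other limma settings (group weights, array weights, the replicate number as a block, every probe set, centred arrays, trend and robust moderation, the SD filter and a threshold of 0.01) or without any single array. The pooled fit of 12 arrays passed 7 genes higher and 1 lower. With the replicate block the count was 0. Same-numbered arrays had correlations of deviations of -0.18, -0.37 and 0.38, and those of differently numbered arrays ran from -0.55 to 0.54. With 3 arrays in each group these values cannot decide whether the numbers pair the samples. Centring moved the lower genes not led by 1 array to 685. A limit of 1.3 left 1029 higher and 215 lower, and a limit of 2 left 749 lower. Leaving out 1 array, where 3 against 2 arrays separate more easily, gave 3280 to 4731 genes separated higher, 1390 to 2450 separated lower, 1627 to 2359 not led higher and 512 to 1035 not led lower. Separated lower genes were 2450, 1900 and 2236 without WT replicates 1, 2 and 3 and 2324 and 1494 without TG replicates 1 and 2, and separated higher genes were 4368 and 4731 without WT replicates 1 and 3 and 4309 without TG replicate 1. Not-led lower genes were 1035, 912, 694 and 742 without WT replicates 1, 2 and 3 and TG replicate 1. Of the 2276 genes, 1807 stayed not led after centring and 1377 to 1895 without 1 array. Alas2 and Hspb7, not separated, ran from -0.40 to 0.011 and from -1.24 to 0.035 over the omissions, above 0 only without WT replicate 2. List medians moved for EGF, PI3K and Bcl-2 genes (-0.041 with every probe set, -0.058 to 0.043 without 1 array), small intestinal enterocyte (-0.024 to 0.21), T and NK cell (-0.39 to -0.086) and skin squamous genes (0.048 to 0.16). Without 1 array the other list medians given ran from 0.42 to 1.18 for cell cycle, 0.27 to 0.38 for stem cell, -1.18 to -0.24 for cytokine, -0.91 to -0.31 for immune tolerance, -2.46 to -0.85 for matrix, -0.088 to 0.50 for xenobiotic, -0.99 to -0.51 for enteric neuron and -0.66 to 0.16 for smooth muscle genes, with the ends near 0 reached without WT replicate 2 for the cytokine, tolerance and matrix lists and without WT replicate 3 for the cell cycle and stem cell lists. The causes were not tested.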

Other observations

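The mu-class glutathione transferases, a family chosen after its values were seen, were separated with TG higher in all 7 measured members, with a median difference of 0.73, and 5 of them were not led by 1 array, beside 14.1% and 9.16% of all genes. Gstm4 read -0.58, -0.86 and -0.70 in WT and -0.14, 0.11 and 0.09 in TG, a difference of 0.73 ± 0.11. Gstm2 differed by 0.52 ± 0.17. The members lie in 1 gene cluster and are close in sequence, so probes may read more than 1 of them.

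Glycosyltransferases, also chosen after their values were seen, had 6 of 75 measured genes higher in TG and not led by 1 array and 4 lower, beside 9.16% and 2.26% of all genes, so the share of higher genes was not above that of all genes. Fut9, a fucosyltransferase that makes the Lewis x structure, read -0.90, -3.02 and -3.27 in WT and -0.70, 0.17 and 0.12 in TG, and St6galnac4, a sialyltransferase, read -1.02, -1.54 and -2.29 in WT and -0.25, 0.43 and -0.23 in TG. St6galnac4 was also separated the same way at water. B3gnt5 and B3gnt7, which extend sugar chains, were higher in TG by 2.03 ± 0.76 and 1.95 ± 0.69. St3gal1, a sialyltransferase of O-glycans, was lower by -1.3 ± 0.32. The median over the 75 genes was 0.07, beside 0.04 over all genes.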
